A study of Mus musculus with 6 samples.

Results

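The Fanconi, homologous repair and checkpoint genes are 47 genes whose products handle broken or crosslinked DNA and stalled replication forks. They were taken by symbol from a list of Fanconi anemia, homologous recombination, translesion and theta-type polymerase and checkpoint genes, and all 47 were found among the 41388 gene rows of the deposited table. RNA of mouse liver was sequenced from 3 wild type and 3 Atp7b-/- libraries. Atp7b encodes the copper-transporting ATPase of hepatocytes whose loss causes Wilson disease, and its absence lets copper build up in the liver. All mice were of mixed C57BL x 129S6/SvEv background, 6 weeks old, and fed a Mazuri rodent diet with 16 ppm copper. The labels name no tissue restriction of the knockout, no drug and no further allele. Read pairs were sequenced from wild type replicate 1 and Atp7b-/- replicate 3, and single reads from the other 4 libraries, all of 54 bases. Labelled sex follows genotype in opposite directions in the 2 layouts: the paired-end pair is labelled male for wild type and female for Atp7b-/-, and the single-end libraries the reverse.

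The Fanconi pathway recognises a DNA interstrand crosslink through a core complex, which attaches ubiquitin to the pair FANCD2 and FANCI. Nucleases then unhook the crosslink, translesion polymerases copy past it, and homologous recombination, led by BRCA1 and BRCA2, mends the break. The kinases ATM and ATR sense breaks and single-stranded DNA and, through CHEK2 and CHEK1, hold the cell cycle. Many of these genes are transcribed mainly in cells that copy their DNA, and hepatocytes of an adult liver are mostly at rest.

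Total counts per library were 5919389 to 25973968, so that 1 count stands for 0.0344 to 0.185 CPM (the usual counts scaled to library size, after TMM), and precision is poorest in wild type replicate 3 and Atp7b-/- replicate 2. Atp7b itself was lower in Atp7b-/- livers, at 25.3, 85.2 and 59.7 CPM over wild type replicates 1 to 3, compared with 19.2, 13.8 and 13.3 CPM over Atp7b-/- replicates 1 to 3 (log2 fold change -1.73, SE 0.30, adjusted p = 0.02). The Atp7b-/- replicate 3 library is labelled female but had Xist at 0.482 CPM and the Y-linked Ddx3y at 126 CPM. Wild type replicate 3, also labelled female, had both, at 17.4 and 28.0 CPM, against 371 and 0.34 CPM in wild type replicate 2. The groups were kept as labelled by genotype.

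Of the 47 genes, 12 were higher in Atp7b-/- livers: Ddias, Polq, Aunip, Rad54b, Fanci, Eme1, Exo1, Fancb, Brca1, Mcph1, Chek2 and Atr. Called means a Benjamini-Hochberg adjusted p under 0.05 in the quasi-likelihood test of edgeR, adjusted over every gene that passed a filter on low counts. The filter asked for about 0.693 CPM in at least 3 libraries, and 41 of the 47 passed. None of the 41 was called lower (0 also at an unadjusted p under 0.05, and 0 by DESeq2 and by limma-voom). Over all 12988 genes tested, 1.90% were called higher and 0.585% lower. The filter bears on this count: 14 of the 41 reached the level in all 3 Atp7b-/- libraries but not in all 3 wild type ones, and 9 of these 14 were called. A gene that passes in this way fell under the level in some wild type library but in no Atp7b-/- one. The filter treats the genotypes alike, and 0 of the 41 passed through the wild type libraries only. A gene low in wild type livers, though, entered the test only where it was higher in Atp7b-/- livers. The count of called genes is therefore given as a description. The remaining 3 called genes, Atr, Chek2 and Mcph1, were among the 27 others. Without Atp7b-/- replicate 3, whose labelled sex its transcripts go against, 4 of the 47 were called, and without wild type replicate 3, 10. Leaving out wild type replicate 1 gave 5 and replicate 2 gave 9, while leaving out Atp7b-/- replicate 1 gave 7 and replicate 2 gave 11. Over all genes in both directions, 0.92% were called without Atp7b-/- replicate 3 and 1.01% without wild type replicate 1. The other fits that leave out a library called 1.56% to 2.34%, against 2.49% with all libraries. These fits tested 40 to 45 of the 47. Leaving out either paired-end library leaves the other alone in its layout, where the layout term fits it exactly. Both of those fits therefore rest on the single-end libraries. Over the 41 genes the median log2 fold change was 0.70, against -0.01 over all genes tested. There were 31 positive and 10 negative values, against 6381 and 6607 over all genes tested. In the other settings tried, the median of the tested genes of the 47 ran from 0.35 (limma-voom) to 1.17 (without Atp7b-/- replicate 3). The filter bears on the median and on these signs too.

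Promoters are shown for 4 of the called genes and for Brca2, which was not called. Each of those shown holds at least 1 of the matches described below, which does not hold for all called genes. Each is a RefSeq window on GRCm38.p6, from 250 bases before to 50 bases after the annotated start, on the gene's own strand. Polq lies at chr16:37011536-37011835 (plus strand), Ddias at chr7:92874198-92874497 (minus strand), Chek2 at chr5:110839733-110840032 (plus strand), Brca1 at chr11:101551906-101552205 (minus strand) and Brca2 at chr5:150522371-150522670 (plus strand). Capitals mark exact matches, on either strand, to the CCAAT box, to the cell cycle homology elements TTTGAA and TTTAAA, or to the E2F sites TTTCCCGC and TTTGGCGC. These are letters often found in promoters of genes transcribed around DNA replication and mitosis.
Polq: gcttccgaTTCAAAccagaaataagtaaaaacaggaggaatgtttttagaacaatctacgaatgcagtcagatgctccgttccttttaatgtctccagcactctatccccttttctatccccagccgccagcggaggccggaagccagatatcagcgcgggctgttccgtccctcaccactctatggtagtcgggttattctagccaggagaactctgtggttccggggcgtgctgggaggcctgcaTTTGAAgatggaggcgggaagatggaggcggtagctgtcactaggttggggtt
Ddias: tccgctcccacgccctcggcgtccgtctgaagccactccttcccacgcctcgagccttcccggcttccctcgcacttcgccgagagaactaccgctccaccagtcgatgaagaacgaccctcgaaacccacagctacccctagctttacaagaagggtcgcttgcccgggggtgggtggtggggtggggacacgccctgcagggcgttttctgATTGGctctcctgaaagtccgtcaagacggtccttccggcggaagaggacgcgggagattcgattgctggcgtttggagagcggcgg
Chek2: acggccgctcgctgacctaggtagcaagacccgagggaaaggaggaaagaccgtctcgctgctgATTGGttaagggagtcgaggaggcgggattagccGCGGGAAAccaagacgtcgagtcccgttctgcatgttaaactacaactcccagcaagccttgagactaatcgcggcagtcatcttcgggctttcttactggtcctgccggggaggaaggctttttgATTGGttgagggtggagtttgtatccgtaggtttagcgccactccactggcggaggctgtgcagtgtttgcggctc
Brca1: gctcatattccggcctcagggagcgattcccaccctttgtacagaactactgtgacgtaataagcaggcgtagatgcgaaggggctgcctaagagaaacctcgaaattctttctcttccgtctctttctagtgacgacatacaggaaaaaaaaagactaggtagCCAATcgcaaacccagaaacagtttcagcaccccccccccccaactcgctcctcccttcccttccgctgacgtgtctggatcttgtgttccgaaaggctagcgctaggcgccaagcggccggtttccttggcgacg
Brca2: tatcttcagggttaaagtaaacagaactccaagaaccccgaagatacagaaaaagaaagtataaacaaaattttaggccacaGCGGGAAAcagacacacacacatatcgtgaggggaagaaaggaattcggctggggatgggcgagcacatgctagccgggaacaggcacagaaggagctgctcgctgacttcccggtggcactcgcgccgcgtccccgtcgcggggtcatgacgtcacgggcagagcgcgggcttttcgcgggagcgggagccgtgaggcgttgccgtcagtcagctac
Counted from the start site, Polq carries TTTGAA from positions -242 and -3. Ddias has a CCAAT box from position -37 and Brca1 from position -86. In the Chek2 window TTTCCCGC begins at position -152, between CCAAT boxes from positions -186 and -26. The Brca2 window also holds TTTCCCGC, from position -168. Windows were found for 37 of the 47 genes, 41 windows in all, and for 9 of the 12 called genes. TTTCCCGC stood in 5 of the 41 windows (12.2%) and in 1.07% of all 32851 windows of the same length. A CCAAT box was in 22 of the 41 (53.7%) against 37.4% of all windows, TTTGAA in 4 (9.76%) against 17.9% and TTTAAA, which reads the same on both strands, in 4 (9.76%) against 13.2%. TTTGGCGC was in 0 of the 41 and in 0.514% of all windows. Among the 9 called genes with a window, TTTCCCGC was in 1 (Chek2), CCAAT in 4 and TTTGAA in 2 (Eme1 and Polq). The windows of the called genes Aunip, Fanci and Atr held none of these matches. No 2 of these matches overlapped in the genes with 1 window, and a match is a description of letters, not a binding site.

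Values below are CPM after TMM scaling, given for wild type replicates 1, 2 and 3 and then for Atp7b-/- replicates 1, 2 and 3, with means ± SD over n = 3 libraries. Fold changes without a further word are log2 values, Atp7b-/- minus wild type, from the edgeR fit with layout as a term, with their standard error (SE). The labels do not state that each library came from its own animal, so the p-values speak only of the spread among these 6 libraries, which may be technical. In whole liver, a change in the number of cells of a type and a change in RNA per cell cannot be told apart. The plot of the called genes by library shows these values together.

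**Figure D1:**
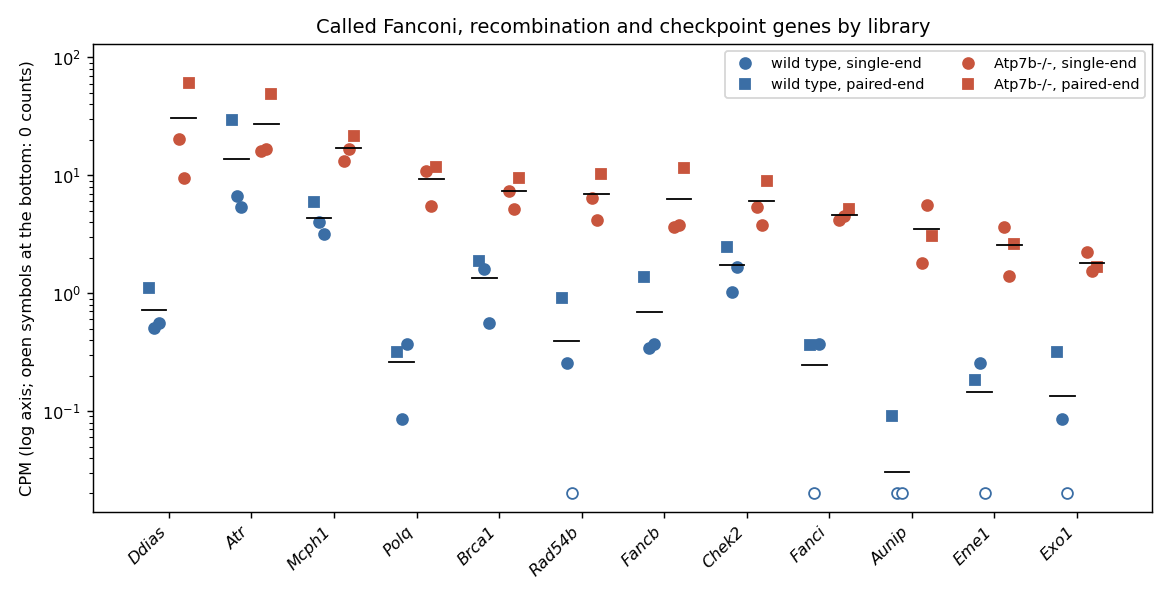
CPM on a log axis of the 12 called genes in each library, with wild type in blue and Atp7b-/- in red, circles for single-end and squares for paired-end libraries, horizontal lines at the mean of 3 libraries, and open symbols for 0 counts. In 11 of the 12 genes all red symbols lie above all blue ones, and Atr is the exception.

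Ddias, which encodes a factor that holds back apoptosis after DNA damage, was called higher in Atp7b-/- livers. Ddias (ENSMUSG00000030641, chromosome 7, 92857525 to 92874247, GRCm38) stood at 1.10, 0.51 and 0.556 CPM in wild type and at 20.3, 9.54 and 61.3 CPM in Atp7b-/- livers. The lowest Atp7b-/- library was far above the highest wild type one, and the paired-end Atp7b-/- library was the highest of all. The means were 0.721 ± 0.326 and 30.4 ± 27.3 CPM, a 42.1-fold ratio of means, and the log2 fold change was 5.35 (SE 0.42, adjusted p = 0.000951). Within the paired-end layout the ratio was 55.9 and within the single-end layout 28.0.

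In the Fanconi core complex, the ubiquitin ligase assembly that acts first at a crosslink, 1 of 8 genes was called, and it was Fancb. Fancb, the partner of the ligase subunit FANCL, is on the X chromosome (ENSMUSG00000047757, 164980592 to 164997272). It stood at 1.37, 0.34 and 0.371 CPM in wild type and at 3.61, 3.79 and 11.5 CPM in Atp7b-/- livers, so the groups did not overlap. The mean rose from 0.694 ± 0.587 to 6.29 ± 4.48 CPM, and the log2 fold change was 3.20 (SE 0.37) with an adjusted p of 0.00251. The ratio was 8.36 in the paired-end pair and 10.4 in the single-end libraries. Fancg, an adaptor of the complex, stood at 2.97, 2.46 and 2.41 CPM in wild type and at 5.54, 4.21 and 5.89 CPM in Atp7b-/- livers. These groups did not overlap either, but the log2 fold change of 1.00 (SE 0.31) had an adjusted p of 0.162. Fance, the bridge between the core complex and FANCD2, was the most abundant core gene, at 7.08, 21.8 and 29.5 against 13.5, 20.3 and 6.75 CPM. Both paired-end libraries were the lowest for Fance, and its groups overlapped (-0.43, SE 0.25, adjusted p = 0.497). Fancl, the ligase subunit, had a log2 fold change of 0.70, Fancm, the translocase that anchors the complex, 0.14, Fancf 0.08, Fancc -0.30 and Fanca -0.44, with adjusted p-values of 0.509 to 0.938. Fancc was the only tested gene of the 41 whose Atp7b-/- libraries all lay below the wild type ones, at 3.67, 3.23 and 3.24 against 3.93, 3.91 and 4.82 CPM.

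Of the ID2 pair, the clamp that the core complex marks with ubiquitin, Fanci was called and Fancd2 was not. Fanci (ENSMUSG00000039187, chromosome 7, 79391929 to 79450264) stood at 0.366, 0 and 0.371 CPM in wild type, which is 8, 0 and 2 counts, and at 4.14, 4.49 and 5.20 CPM in Atp7b-/- livers. Every Atp7b-/- library was above every wild type one, and the 3 were close to each other. The mean rose from 0.245 ± 0.213 to 4.61 ± 0.541 CPM, and the log2 fold change was 4.31 (SE 0.63) with an adjusted p of 0.00805. Of its exon bases, 15.95% also belong to Polg on the other strand. The sources used here do not give the strand setting of the counting. Polg itself had a mean of 63.2 CPM in wild type and of 47.7 CPM in Atp7b-/- livers. Fancd2 stood at 0.823, 0.255 and 0 CPM in wild type and at 2.27, 1.12 and 3.31 CPM in Atp7b-/- livers. Its groups did not overlap, and the log2 fold change of 2.58 (SE 0.62) had an adjusted p of 0.0749.

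Of the genes around BRCA1 and BRCA2, Brca1 was called and Brca2 was not. BRCA1 promotes end resection, and BRCA2 acts on the single-stranded DNA that resection leaves. Brca1 (ENSMUSG00000017146, chromosome 11, 101488764 to 101551955) stood at 1.87, 1.61 and 0.556 CPM in wild type and at 7.40, 5.19 and 9.47 CPM in Atp7b-/- livers. The groups did not overlap, the means were 1.35 ± 0.698 and 7.36 ± 2.14 CPM, and the log2 fold change was 2.38 (SE 0.39, adjusted p = 0.0134). Brca2 stood at 6.90, 2.55 and 4.26 CPM in wild type and at 2.74, 4.21 and 5.96 CPM in Atp7b-/- livers. The Brca2 values were interleaved, and the log2 fold change of -0.06 (adjusted p = 0.962) had a 2-SE interval from -0.74 to 0.62. Brip1, the helicase that binds BRCA1, stood at 6.86, 1.44 and 1.48 against 7.0, 5.05 and 11.1 CPM. Only its paired-end wild type library reached into the Atp7b-/- range (1.48, SE 0.37, adjusted p = 0.0841). Bard1, the partner of BRCA1 in its ligase, and Palb2, which links BRCA1 to BRCA2, were under the filter, with wild type means of 0.443 and 0.537 CPM and Atp7b-/- means of 0.766 and 0.956 CPM.

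The paralogs Rad51b, Rad51c, Rad51d, Xrcc2 and Xrcc3, which assist strand exchange, and Rad52 gave no call by edgeR, DESeq2 or limma-voom among 5 genes tested. At an unadjusted p under 0.05, 1 of them was higher, Xrcc2. Xrcc2 stood at 1.92, 1.27 and 0.741 CPM in wild type and at 4.61, 1.54 and 5.68 CPM in Atp7b-/- livers, with one Atp7b-/- library inside the wild type range (1.58, SE 0.47, adjusted p = 0.146). Rad51d, the most abundant paralog, stood at 12.4, 18.4 and 22.6 against 27.7, 16.3 and 15.3 CPM and overlapped (0.18, adjusted p = 0.801). Rad52 (0.15), Xrcc3 (-0.27) and Rad51c (-0.77, SE 0.61) had adjusted p-values of 0.63 to 0.861. Rad51b had 3 counts in wild type and 8 in Atp7b-/- libraries, too few to test, a ratio of 1.95 with an exact Poisson interval of 0.469 to 11.4 that covers counting error only.

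Among the motors that remodel recombination intermediates, Rad54b was called. Rad54b (ENSMUSG00000078773, chromosome 4, 11558922 to 11615805), a translocase of recombination, had 20, 3 and 0 counts in wild type and 110, 30 and 300 in Atp7b-/- libraries. In CPM these were 0.914, 0.255 and 0 against 6.41, 4.21 and 10.3, with no overlap. The mean rose from 0.39 ± 0.472 to 6.98 ± 3.10 CPM (4.07, SE 0.53, adjusted p = 0.00453). Rad54b shares 35.77% of its exon bases with Fsbp on the same strand, and reads there cannot be assigned to one of them. Counted as its own gene, Fsbp had a mean of 0.205 CPM in wild type and of 0.908 CPM in Atp7b-/- livers. Rad54l, the other RAD54 translocase, stood at 0.64, 0.595 and 0 against 2.62, 1.96 and 2.07 CPM (2.19, SE 0.62, adjusted p = 0.125). Blm, the helicase of Bloom syndrome, stood at 5.30, 1.70 and 0.556 against 5.83, 6.03 and 11.6 CPM (1.77, SE 0.40, adjusted p = 0.0599). Neither Rad54l nor Blm overlapped between the groups, although the paired-end wild type library came close to the lowest Atp7b-/- value for Blm.

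Of the 5 genes that sense and trim broken ends, Aunip and Exo1 were called. Aunip (ENSMUSG00000078521, chromosome 4, 134510999 to 134523927) encodes a protein that brings the resection factor CtIP to breaks. It had 2, 0 and 0 counts in wild type and 31, 40 and 88 in Atp7b-/- libraries, which is 0.0914, 0 and 0 against 1.81, 5.61 and 3.03 CPM. The ratio of the summed counts, scaled to library size, was 58.2 with an exact Poisson interval of 15.9 to 485, and the adjusted p was 0.00885. Exo1 (ENSMUSG00000039748, chromosome 1, 175880581 to 175913489), the nuclease that extends resection, stood at 0.32, 0.085 and 0 CPM in wild type and at 2.22, 1.54 and 1.65 CPM in Atp7b-/- livers. Its groups did not overlap, the means were 0.135 ± 0.166 and 1.80 ± 0.36 CPM, and the log2 fold change was 3.31 (SE 0.69, adjusted p = 0.0431). The Exo1 call was lost when any 1 of the 6 libraries was left out, with adjusted p-values of 0.081 to 0.155. Rad50 and Nbn, the subunits of the break sensor around MRE11, were abundant and overlapped between the groups. Rad50 stood at 15.8, 14.3 and 8.90 against 14.5, 14.7 and 11.9 CPM (0.06, 2-SE interval -0.47 to 0.59). Nbn stood at 23.4, 8.24 and 8.71 against 6.70, 13.5 and 20.2 CPM (0.07, 2-SE interval -0.51 to 0.64). Rbbp8, which encodes CtIP, had a log2 fold change of 0.39 with an adjusted p of 0.588.

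Of the nuclease pair MUS81 and EME1, which cuts branched DNA, Eme1 was called and Mus81 was not. Eme1 (ENSMUSG00000039055, chromosome 11, 94644996 to 94653964) had 4, 3 and 0 counts in wild type and 62, 10 and 76 in Atp7b-/- libraries. In CPM these were 0.183, 0.255 and 0 against 3.61, 1.4 and 2.62, without overlap (3.84, SE 0.68, adjusted p = 0.0197). Its catalytic partner Mus81 stood at 5.99, 9.26 and 6.49 CPM in wild type and at 7.46, 5.19 and 6.37 CPM in Atp7b-/- livers. The Mus81 values overlapped, with a log2 fold change of -0.17 and a 2-SE interval of -0.75 to 0.40. Slx4, the scaffold that gathers these nucleases, was at 5.74 ± 1.34 and 6.63 ± 1.93 CPM (0.15, adjusted p = 0.875).

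Polq, the theta-type polymerase that joins resected ends by short homologies, was the only called polymerase. Polq (ENSMUSG00000034206, chromosome 16, 37011786 to 37095417) stood at 0.32, 0.085 and 0.371 CPM in wild type, or 7, 1 and 2 counts. In Atp7b-/- livers it stood at 10.8, 5.47 and 11.7 CPM, or 185, 39 and 339 counts, far above the wild type range. The means were 0.259 ± 0.152 and 9.31 ± 3.35 CPM, a 36.0-fold ratio of means, and the log2 fold change was 5.29 (SE 0.51, adjusted p = 0.00108). Polk and Polh, polymerases that copy across damaged bases, did not reach the threshold. Polk stood at 8.50, 2.72 and 0.927 against 9.39, 3.51 and 26.7 CPM, and its Atp7b-/- mean was carried by the paired-end library (1.70, SE 0.44, adjusted p = 0.0998). Polh stood at 6.90, 2.80 and 1.85 against 5.13, 7.58 and 8.37 CPM (0.95, SE 0.36, adjusted p = 0.264). Poln had 2 counts in wild type and 6 in Atp7b-/- libraries, a ratio of 2.20 (exact Poisson interval 0.393 to 22.2).

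The checkpoint kinases divided, with Chek2 and Atr called and Atm not. Chek2 (ENSMUSG00000029521, chromosome 5, 110839979 to 110874145), the kinase that ATM switches on, stood at 2.47, 1.02 and 1.67 CPM in wild type and at 5.36, 3.79 and 8.95 CPM in Atp7b-/- livers. Its groups did not overlap, and the means were 1.72 ± 0.725 and 6.04 ± 2.65 CPM (1.85, SE 0.35, adjusted p = 0.0275). Atr (ENSMUSG00000032409, chromosome 9, 95857597 to 95951781), the kinase of stalled forks, stood at 29.3, 6.63 and 5.38 against 16.1, 16.7 and 49.1 CPM. Atr was the only called gene whose ranges overlapped: the paired-end wild type library was above both single-end Atp7b-/- ones. Within layouts the Atr ratio was 1.68 (paired-end) and 2.73 (single-end), and the fit with layout gave 1.18 (SE 0.23, adjusted p = 0.0304). The Atr call was lost when any 1 of the 6 libraries was left out, with adjusted p-values of 0.0676 to 0.0895. Atm, the kinase of double-strand breaks, stood at 26.9, 10.7 and 11.3 against 12.2, 11.5 and 17.4 CPM, with a 2-SE interval of -0.62 to 0.31. Atrip, the partner that carries ATR to DNA, was at 9.16 ± 1.41 and 7.75 ± 1.37 CPM (-0.23, adjusted p = 0.736). Chek1, the kinase below ATR, was under the filter, at 0.96, 0.34 and 0.371 against 0.291, 0.14 and 2.07 CPM.

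Among the mediators, Mcph1 was called. Mcph1 (ENSMUSG00000039842, chromosome 8, 18595131 to 18803189), an early factor of the damage response that also restrains chromosome condensation, stood at 5.99, 3.99 and 3.15 CPM in wild type and at 13.1, 16.6 and 21.6 CPM in Atp7b-/- livers. The groups were well apart, with means of 4.38 ± 1.46 and 17.1 ± 4.28 CPM (1.96, SE 0.25, adjusted p = 0.00371). The ratio was 3.61 in the paired-end pair and 4.15 in the single-end libraries. Topbp1, which activates ATR, was at 10.6 ± 4.18 and 10.9 ± 3.74 CPM, and Timeless and Tipin, which together protect the fork, had log2 fold changes of 0.02 and -0.34. Their adjusted p-values were 0.70 to 0.983. Clspn, the bridge from ATR to CHEK1, was under the filter, with means of 0.212 CPM (wild type) and 0.487 CPM (Atp7b-/-).

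**Figure D2:**
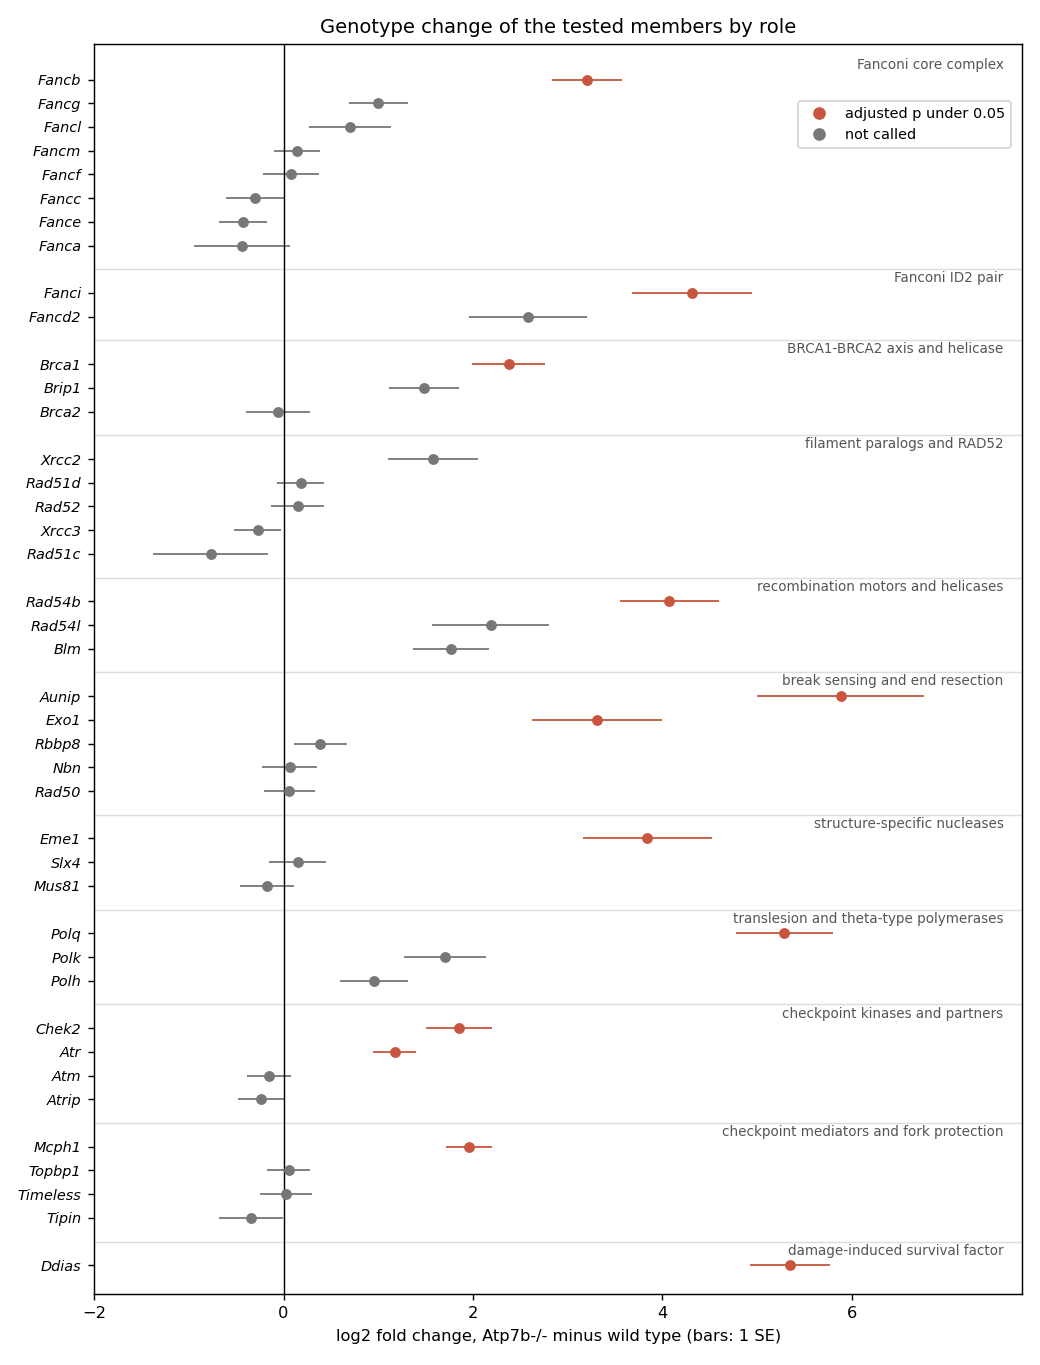
Log2 fold change (Atp7b-/- minus wild type, bars of 1 SE) of the 41 tested genes, grouped by role and ordered by size within each role, with called genes in red and the others in gray. The red points lie between 1.18 (Atr) and 5.88 (Aunip), and no red point lies left of 0.

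Called genes were found in 10 of the 11 role groups, as the plot of changes by role shows, and in most of them next to uncalled partners. All 3 Atp7b-/- libraries were above all 3 wild type ones in 15 of the 41 tested genes, 11 of them called and 4 not (Fancd2, Fancg, Rad54l and Blm). All 3 were below in 1 gene, Fancc. Over all genes tested, 5.23% were fully above and 3.28% fully below. Of the 15, all but Fancg, Chek2 and Mcph1 reached the filter level in all 3 Atp7b-/- libraries but not in all 3 wild type ones. The filter thus bears on this count too, which is a description. Of the 29 uncalled genes, 17 had a 2-SE interval that stayed within 1 log2 unit of 0 on both sides and 9 had one that reached 1 or more. Summed over the 12 called genes, the level was 44.2, 14.8 and 12.4 CPM in wild type and 94.8, 78.3 and 196 CPM in Atp7b-/- libraries. Summed over the 29 uncalled genes it was 223, 169 and 175 against 195, 193 and 249 CPM. The 12 were picked by their calls in these same libraries, which sets the direction of their sum in advance. Both sums are therefore descriptions.

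Levels of different genes were compared per kilobase of merged exon, which puts long and short genes on one scale. In wild type livers the top of the order was Fance at 6.09 ± 3.56 CPM per kb, Nbn at 5.31 ± 3.40, Rad51d at 4.79 ± 1.38 and Fancf at 4.44 ± 2.63. These 4 neighbours do not differ beyond their spread. The 12 called genes were low in this order, with a median of 0.113 CPM per kb against 0.749 for the 29 uncalled ones, and 8 of the 12 had a wild type mean under 1 CPM. The filter bears on this order too, since a gene low in wild type entered the test only where it was high in Atp7b-/- livers, as 9 of the 12 did. In Atp7b-/- livers the medians were 1.18 and 1.03 CPM per kb. Ddias went from place 30 of 47 to place 1, at 8.20 ± 7.37 CPM per kb, with a spread that covers Rad51d (5.32 ± 1.86) and Nbn (5.32 ± 2.67) behind it. That first place rests on Atp7b-/- replicate 3: in replicates 1 and 2 Ddias was at 5.48 and 2.58 CPM per kb and Rad51d at 7.47 and 4.38. Aunip went from place 45 to 6 and Polq from 44 to 24. Poln was last in both genotypes.

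**Figure D3:**
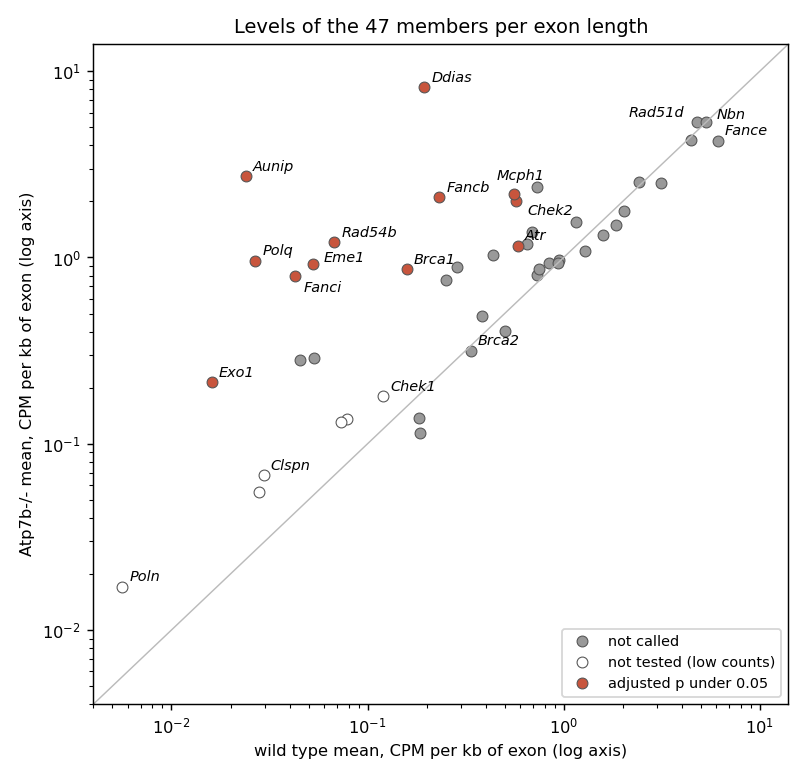
Mean level per kilobase of exon in wild type (horizontal) and in Atp7b-/- livers (vertical) for the 47 genes, both axes logarithmic, with called genes in red, uncalled ones in gray and untested ones open; the line marks equal levels. Ddias moves from 0.195 to 8.20 CPM per kb, while Rad51d, Nbn and Fance lie near the line.

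The 2 layouts were compared because they are also the 2 arrangements of labelled sex. Every Atp7b-/- library, replicate 3 included, had Xist at 0.117 to 0.702 CPM and Ddx3y at 29.5 to 126 CPM. Wild type replicates 2 and 3 had Xist at 371 and 17.4 CPM and Ddx3y at 0.34 and 28.0 CPM. Wild type replicate 1 had Xist at 1.01 and Ddx3y at 161 CPM. By transcripts, the paired-end pair thus had low Xist and high Ddx3y in both genotypes. In the single-end libraries Xist was higher in both wild type ones, and Ddx3y was low only in wild type replicate 2. Sex by transcripts thus partly follows genotype there, and the comparison of layouts does not test it. All 12 called genes were higher in Atp7b-/- libraries in both layouts, and 19 of the 29 uncalled genes had one sign in both. The 12 were called from these same libraries, so their shared sign is largely set by that choice and is no separate support. A genotype change that differs between layouts, which in this design is the same term as the difference between labelled sexes, was called in 0 of the 41 genes (edgeR, lowest adjusted p 0.987, 0 at an unadjusted p under 0.05). It was called in 0.0154% of all genes, and 594 of all 12988 had an unadjusted p under 0.05 for it. With 41 genes, counts of 0 are near both of these shares. Each paired-end library is fitted exactly in that test, so its error comes from the single-end libraries alone.

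**Figure D4:**
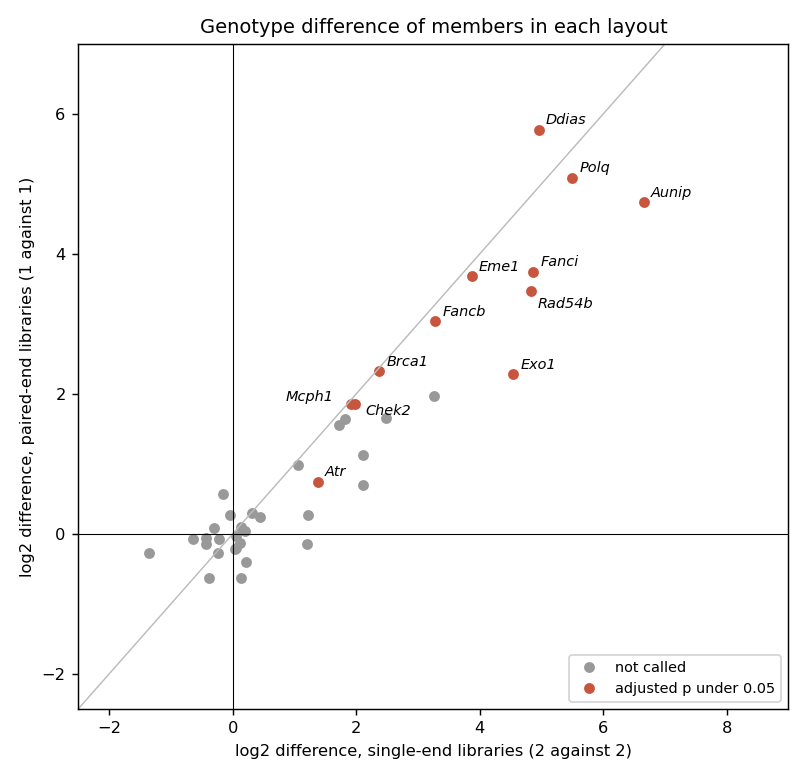
Log2 difference between genotypes in the single-end libraries (horizontal, 2 against 2) and in the paired-end libraries (vertical, 1 against 1) for the 41 tested genes, with 0.5 counts added before taking logs; called genes are red and the line marks equal differences. All 12 red points lie in the upper right, from Atr to Ddias, Polq and Aunip.

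Related genes outside the 47 were read from the same fit. Of the 32 tested partners of these genes that are reported here, 1 was called higher and 0 lower, near the 1.90% and 0.585% of all genes, and the median log2 fold change was 0.04. At an unadjusted p under 0.05, 8 were higher and 2 lower, and DESeq2 called 3 higher and limma-voom 1. Over all 12988 genes tested, 1013 were higher and 876 lower at that unadjusted p (edgeR). DESeq2 called 468 of them higher and 302 lower, and limma-voom 289 and 107. These are the comparison for the lists below as well. Mcm8, a helicase that works with MCM9 in recombination, rose from 2.79, 0.595 and 0.371 CPM to 4.90, 5.33 and 12.2 CPM (2.71, SE 0.38, adjusted p = 0.00703). Its groups did not overlap. The checkpoint clamp, chromatin mediators and cell cycle targets gave 0 calls among 17 genes by edgeR (1 higher and 1 lower at an unadjusted p under 0.05; DESeq2 0 higher and 1 lower, limma-voom 0).

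Of the other DNA repair routes, 3 are given, and with lists this short a count of 0 is near the 1.90% and 0.585% called over all genes. Non-homologous end joining had 0 of 11 called (edgeR, 1 higher at an unadjusted p under 0.05, 0 by DESeq2 and limma-voom) and nucleotide excision repair 0 of 11 (2 higher at that p, 0 by both). Base excision repair had 0 of 14 by edgeR, 1 higher and 1 lower at an unadjusted p under 0.05. DESeq2 called 1 higher and 1 lower there, and limma-voom 1 higher. The medians of these 3 lists lay between 0.15 and 0.39. Of p53 and 14 of its targets, 11 of 15 were called higher, against 1.90% of all genes, with a median of 1.84, among them Cdkn1a (3.10 to 122 CPM, 5.31, SE 0.49) and Aen (13.6 to 48.4 CPM, 1.84, SE 0.20). Trp53 itself was at 0.26 (adjusted p = 0.627). The 11 calls became 6 without wild type replicate 1 or without Atp7b-/- replicate 3, 8 without wild type replicate 3, and 10 to 12 without any 1 of the others. The fits without wild type replicate 1 and without Atp7b-/- replicate 3 again rest on the single-end libraries. The Cdkn1a call was lost without wild type replicate 3 (adjusted p = 0.0741).

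**Figure D5:**
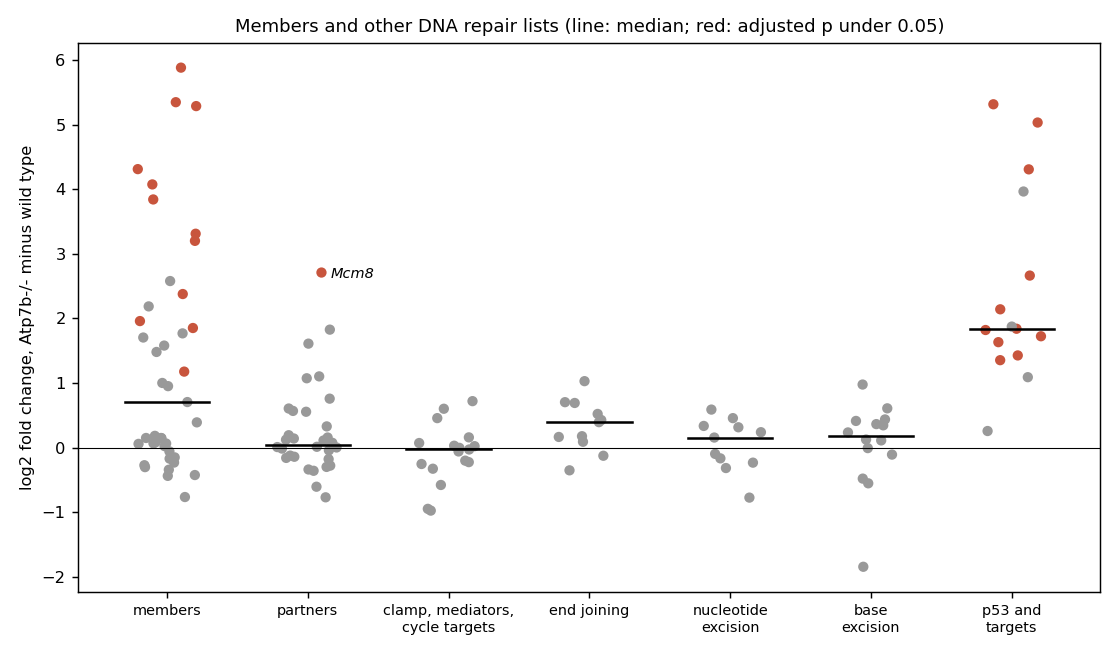
Log2 fold change (Atp7b-/- minus wild type) of each tested gene in the 47-gene set and in 6 other lists, with called genes in red, the others in gray and the median of each list as a line. The medians are 0.70 for the 47-gene set, 0.04 for its partners and 1.84 for p53 and its targets, and the end joining and excision lists hold no red point.

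Mitochondrial genes took 7.74% and 8.14% of the counts of the paired-end pair and 2.50% to 4.15% of those of the others. Hepatocyte markers were present in every library, with a summed level of 73547 to 107323 CPM in wild type and 50740 to 70612 CPM in Atp7b-/- livers, and 0 of 6 were called (edgeR). Summed macrophage markers were 157 to 341 and 173 to 260 CPM, T and NK cell markers 1.67 to 1.78 and 0.842 to 1.57 CPM, B and plasma cell markers 1.11 to 6.44 and 1.12 to 4.99 CPM, and granulocyte markers 0.425 to 2.42 and 0.561 to 1.72 CPM. Endothelial markers were 146 to 409 and 133 to 287 CPM, stellate markers 236 to 484 and 288 to 368 CPM, and biliary markers 21.8 to 51.2 and 29.2 to 77.7 CPM. Erythroid markers were 21.4 to 192 and 187 to 283 CPM, of which Alas2 made 57.9% in wild type replicate 2 and 93.8% to 99.4% in the other 5 libraries, while Rhag was at 0 in 5 of the 6 libraries. No tested gene of these lists was called. Of the T and NK cell markers 0 of 6 passed the filter, and of the granulocyte markers 0 of 6, so no call was possible there. Of the B and plasma cell markers 2 of 5 passed, and of the erythroid ones 3 of 4. The part of these cell types in the changes above was not tested.

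Single calls differed in how far they held when a library was left out. These fits reuse the libraries that gave the calls, so they are no separate support. Rad54b, Polq, Mcph1 and Ddias were called in all 6 fits that each leave out 1 library, with adjusted p-values up to 0.0451, 0.0312, 0.0485 and 0.0276. Mcph1 reached the filter level in all 3 wild type libraries, while Rad54b, Polq and Ddias did so only in the Atp7b-/- ones. Fancb was lost without Atp7b-/- replicate 3 (adjusted p = 0.0622), and Fanci and Aunip without that library (0.0818 and 0.101) or wild type replicate 1 (0.062 and 0.0878). Brca1 was lost without wild type replicate 1 (0.105) or Atp7b-/- replicates 1 (0.0506) or 3 (0.126), and so was Eme1 (0.151, 0.0896 and 0.162). Chek2 was lost without any 1 of these 3 (0.158, 0.13 and 0.183) or wild type replicate 2 (0.0757). The fitted log2 fold change itself moved by over 1.5 times, on the linear scale, in 4 called genes. Without wild type replicate 1 or Atp7b-/- replicate 3 it became 4.87 or 4.85 for Exo1 (3.31 with all libraries), 8.65 or 8.51 for Aunip (5.88), 4.92 in both cases for Rad54b (4.07) and 5.03 or 5.02 for Fanci (4.31). Fanci also moved to 3.71 without wild type replicate 2. The fits without wild type replicate 1 and without Atp7b-/- replicate 3 are in effect the same comparison of the single-end libraries. In each, the layout term takes up the paired-end library that remains, so they are not separate checks. Single-end libraries alone gave 4.80 for Exo1, 8.21 for Aunip, 4.90 for Rad54b and 5.00 for Fanci. Where the wild type libraries that remain hold 0 or a few counts, the fitted value depends on the prior count. With no layout term, or with labelled sex in its place, edgeR called 0 genes at all. At an unadjusted p under 0.05, 15 and 12 of the 41 tested were higher in these fits. Over all 12988 genes, 545 and 381 had that p in either direction. Labelled sex is at odds with the transcripts of Atp7b-/- replicate 3, so the fit with it does not adjust for sex by transcripts.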

How the data were processed

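Raw, unnormalized counts for each Ensembl gene of the 6 liver libraries were used as the authors deposited them. STAR 2.4, featureCounts, edgeR 3.8 and build GRCm38 are named, per the submitters' processing notes. The sources used here do not give the strand setting, the treatment of shared reads, or whether a read pair counts once. GENCODE M21 (GRCm38) named 40340 of 41388 rows and all 47 genes. Counts were fitted with edgeR 4.0.16 in R 4.3.3: TMM, an expression filter with a minimum count of 10, and a robust quasi-likelihood model of genotype plus layout over all 6 libraries. DESeq2 1.42.0, limma 3.58.1 (voom) and other settings were alternatives. The scripts were tested on simulated data. The standard error is the absolute log2 fold change over the square root of F. Replicate numbers follow deposition order and pair no libraries. Genes and lists were chosen with earlier results of these data known. Values per library are given for every called gene and, per role, for up to 3 uncalled genes (the most abundant and the 2 with the smallest p), and related genes are named where called or, up to 3 per list, by smallest p. Chek1, Fancc and Trp53 were added after their values were seen. A table of differential expression named in the labels was not used here. A few genes of the comparison lists, and 1 list, are not reported here, and counts over the lists leave them out.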

Additional observations from a re-analysis of the deposited data

How the results depend on the processing

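The number of called genes over the whole table was 323, and that of called genes among the 47 was 12. DESeq2 called 770 genes and 17 of the 47, adding Blm, Brip1, Fancd2, Polk and Rad54l. With no filter on low counts edgeR called 1116 genes and 18 of the 47, the same additions and Xrcc2. RLE or upper quartile scaling, a minimum count of 5 and limma-voom kept all 12, and the non-robust fit 11, with Exo1 at an adjusted p of 0.0524. Both numbers were 0 with no layout term and also when labelled sex replaced it. Single-end libraries alone gave 126 genes and 5 of the 47. Leaving out 1 library gave 119 to 323 genes and 4 to 11 of the 47. No setting called any of the 47 lower, and the 12 log2 fold changes were positive in 16 of 16 alternatives. These alternatives use all or part of the libraries that gave the calls, so that count is no separate support. Of the 29 uncalled genes, 10 changed sign in 1 to 5 settings, Brca2 and Timeless in 5 each. The cause of these shifts was not tested. No paired analysis was possible because the labels give no replicate numbers that the groups share. Depth limits the low genes: in wild type replicate 3, 3 counts stand for 0.556 CPM, above the wild type mean of Polq, Eme1, Exo1, Aunip, Fanci and Rad54b.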
